A study of Arabidopsis thaliana with 6 samples.

Results

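The early light-induced proteins (ELIPs) and their light-harvesting-like relatives were followed in *Arabidopsis* seedlings with and without LONG HYPOCOTYL5 (HY5), a bZIP transcription factor that promotes photomorphogenesis. They were picked by locus code, with earlier results of these data known, and were *ELIP1* (AT3G22840), *ELIP2* (AT4G14690), *SEP1* (AT4G34190), *LIL3:1* (AT4G17600), *LIL3:2* (AT5G47110), *OHP1* (AT5G02120), *OHP2* (AT1G34000) and *PSBS* (AT1G44575). These are 8 of the 29030 locus codes on the array, and 12 of its 43603 non-control probes belong to them. Whole seedlings of cultivar Col were grown for 3 days under continuous white light, and their total RNA, labeled with Cy3, was read on 6 one-color Agilent arrays. There were 3 arrays of *hy5*, which carries the T-DNA insertion SALK_096651 and stands for 1 mutant line, and 3 arrays of wild type.

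Members of this family sit in the thylakoid membrane of the chloroplast and share a chlorophyll-binding helix with the antenna proteins of the photosystems. Unlike the antenna proteins they are not thought to collect light. ELIPs appear transiently when a seedling turns green and return under strong light, cold or UV-B, when free chlorophyll must be held safely. The induction of *ELIP* genes by blue light and by UV-B is known to need HY5. The relatives have other tasks in the same membrane, in pigment synthesis, in photosystem II assembly and in the release of excess excitation as heat.

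Every value below is the signal of a spot divided by the 75th percentile of its own array, and a log2 difference is *hy5* minus wild type on that scale. This divisor ranged over intensities of 981 to 1057 in *hy5* and of 487 to 558 in wild type, so every change is relative to it. Arrays of the same genotype had a Pearson r of 0.994 to 0.996 across genes, and arrays of different genotypes of 0.963 to 0.972. To be tested, a gene needed a probe that the scanner software marked as well above background in all 3 replicates of *hy5* or of wild type, and the brightest such probe stood for it. This left 21590 genes. Genotypes were compared with limma. Calls required an adjusted p (Benjamini-Hochberg, over all these genes) under 0.05 together with a change of at least 2-fold. All 12 probes of the family were well above background on all 6 arrays, and none was saturated. The *HY5* transcript itself was 0.0217, 0.0283 and 0.0169 on the *hy5* arrays, against 1.32, 1.38 and 1.24 on the wild-type arrays. All *hy5* arrays were on one slide and scanned together, and all wild-type arrays on another, so slide or scan and genotype cannot be told apart. Neither the labels nor the methods say whether the replicates were separate plant samples, so the p-values measure the spread between these arrays, which may be technical.

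*ELIP2* was the only one of the 8 genes that was called, and it was lower in *hy5*. *OHP2* was lower at the adjusted p alone, with a change short of 2-fold. Among all genes tested, 4.84% were called lower and 6.55% were called higher in *hy5*, and 26.6% were lower and 26.3% higher at an adjusted p under 0.05 at any fold. So 1 of 8 genes called lower, 0 of 8 called higher and 2 of 8 lower at any fold stand beside these shares, and 0 of 8 were higher at any fold. At an unadjusted limma p under 0.05, 4 of the 8 were lower and 1 was higher. Genes that pass the adjusted p also pass this looser limit, so its shares over all genes are at least 26.6% lower and 26.3% higher. The methods' t-test, unadjusted and at 2-fold, also called 1 of the 8 lower and 0 higher, beside 972 lower and 1263 higher among all genes tested. Values of the genotypes did not overlap for *ELIP2* and *OHP2*, lower in *hy5*, and for *LIL3:1*, higher in *hy5*, which is 2 and 1 of 8 genes beside 31.7% and 30.8% of all genes tested. The log2 difference was below 0 for 7 of the 8 genes and above 0 for 1, with a median of -0.26, while the median of all genes tested was -0.0044.

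**Figure D1:**
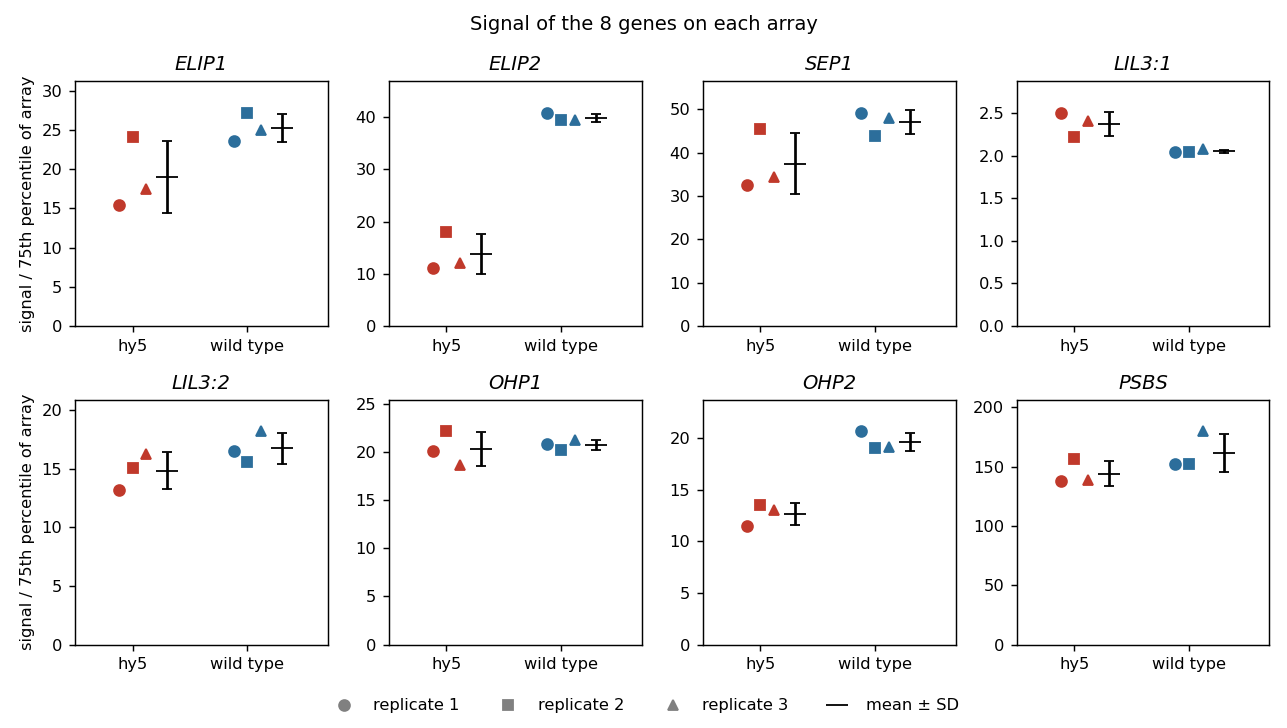
Signal of each of the 8 genes on the y axis, as a multiple of the 75th percentile of the array, with *hy5* arrays (red) left of wild-type arrays (blue), a symbol for each replicate, and the mean ± SD of 3 arrays in black. *ELIP2* lies between 11.1 and 18.1 in *hy5*, below all wild-type arrays (39.3 to 40.8), while *ELIP1*, *SEP1*, *LIL3:2*, *OHP1* and *PSBS* overlap between genotypes.

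The ELIPs are the stress-induced members closest in build to the antenna proteins. *ELIP2* had a signal of 11.1, 18.1 and 12.1 on the *hy5* arrays, against 40.8, 39.3 and 39.5 on those of wild type. The genotypes did not overlap, and even the highest *hy5* array, replicate 2, was far below every wild-type array. The mean was 13.8 ± 3.77 in *hy5* and 39.9 ± 0.797 in wild type (SD, n = 3 each), a log2 difference of -1.57 (95% interval -1.98 to -1.15, limma adjusted p = 0.000381), 2.96-fold lower in *hy5*. By size of the fall it was number 260 of the 21590 genes tested, and 1.2% of them had a lower difference. *ELIP2* stayed lower even before scaling. Its intensity was 11294, 17749 and 12827 in *hy5*, against 19866, 21915 and 22000 in wild type, although most genes were brighter on the *hy5* arrays. That unscaled difference was -0.63 on the log2 scale (limma adjusted p = 0.00491) and was under 2-fold.

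*ELIP1*, its closest paralogue, did not pass the test. Its signal was 15.4, 24.2 and 17.5 on the *hy5* arrays, against 23.6, 27.2 and 25.0 on the wild-type arrays. Replicates 1 and 3 of *hy5* were below all wild-type arrays, and replicate 2 lay among them. The log2 difference was -0.43 (95% interval -0.82 to -0.042, limma adjusted p = 0.0617). With single arrays left out it lay between -0.62 (without *hy5* replicate 2, limma adjusted p = 0.0071) and -0.29 (without *hy5* replicate 1, adjusted p = 0.171), and the removal of *hy5* replicate 2 was the only one of the 6 under which it passed the adjusted p, still under 2-fold. On the unscaled intensities *ELIP1* was higher in *hy5*, by 0.50 on the log2 scale (limma adjusted p = 0.0189).

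The gap between the pair on each array was then set side by side. With the mean of the wild-type arrays set to 0, the log2 signal of *ELIP1* less that of *ELIP2* was 1.14, 1.08 and 1.19 on the *hy5* arrays, against -0.13, 0.13 and 0.0022 on the wild-type arrays. Values of the 3 *hy5* arrays lay close together, including replicate 2, on which both genes were bright, and the genotypes did not overlap. The changes of the paralogues thus differed by 1.14 (standard error 0.0806). The exact two-sided permutation test over the 20 splits of the 6 arrays gave p = 0.10, which is the smallest it can give with 3 arrays against 3, and the adjusted value over the 3 pairs compared was 0.10. A constant that scales an array cancels in this difference, since both genes were read on the same array, and over the scaled alternatives it lay between 1.04 and 1.14. The filter and probe settings among them could not move it, as each gene was read by a single probe. Probe sequences were not used here, and signal shared between the paralogues was not tested.

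*SEP1* encodes stress enhanced protein 1, a thylakoid protein whose transcript rises in strong light. Its signal was 32.5, 45.6 and 34.4 on the *hy5* arrays, against 49.2, 43.9 and 48.1 on the wild-type arrays. As for *ELIP1*, replicates 1 and 3 of *hy5* lay below wild type and replicate 2 among its arrays. The log2 difference was -0.34 (95% interval -0.67 to -0.015, limma adjusted p = 0.074). With single arrays left out it lay between -0.49 (without *hy5* replicate 2, adjusted p = 0.0103, the only one of the 6 that passed, under 2-fold) and -0.25 (without *hy5* replicate 1, adjusted p = 0.196), and with normexp background correction it was -0.18 (adjusted p = 0.191). Its sister gene *SEP2* (AT2G21970), which was not among the 8, had 9.37, 12.2 and 12.5 in *hy5*, against 23.8, 21.6 and 22.0 in wild type. No array overlapped, and the log2 difference was -0.998 (limma adjusted p = 0.000665), just short of 2-fold, while its other probe had -1.02 and passed both limits.

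*ELIP1*, *ELIP2* and *SEP1* shared one feature within the mutant, a brighter replicate 2, which other genes had as well. On the log2 scale that array exceeded the next *hy5* array by 0.47 for *ELIP1*, 0.58 for *ELIP2* and 0.40 for *SEP1*. Gaps of at least this size were found for 2.02%, 1.03% and 3.07% of all genes tested. Replicate 2 was the brightest *hy5* array for 37.4% of all genes, replicate 1 for 34.8% and replicate 3 for 27.8%, so it was not the brightest for most genes. For *OHP1*, *OHP2* and *PSBS* replicate 2 was also the highest, by 0.14, 0.054 and 0.18, and for *LIL3:1* it was the lowest *hy5* array. Outside the family, *HY5* had a gap of 0.38, and 3.55% of all genes had one at least as wide. That gap was read at intensities of only 22.1, 27.7 and 17.9, far below the 75th percentile of these arrays. Light regulators, listed below, were divided in this. Replicate 2 was also the brightest *hy5* array for *RUP1* (2.72, next array 1.98), *RUP2* (8.37, next array 6.20), *GLK1* and *GLK2*. It was not the brightest for *HYH*, *CRY1*, *CRY2*, *PHYA*, *PHYB*, *UVR8* and *COP1*, and for *PHYB* and *COP1* it was the lowest. What set replicate 2 apart was not tested.

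The LIL3 proteins hold geranylgeranyl reductase and protochlorophyllide oxidoreductase at the membrane, where the tail and the ring of chlorophyll are completed. *LIL3:1* was the only one of the 8 genes with a difference above 0. Its signal was 2.50, 2.22 and 2.40 on the *hy5* arrays, against 2.04, 2.04 and 2.07 on the wild-type arrays, with no overlap. The log2 difference was 0.21 (95% interval 0.0053 to 0.41, limma adjusted p = 0.0784).

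*LIL3:2* was read by 3 probes, all with lower means in *hy5*. The brightest had 13.2, 15.1 and 16.3 on the *hy5* arrays, against 16.5, 15.6 and 18.2 on the wild-type arrays, and the genotypes overlapped. Its log2 difference was -0.18 (95% interval -0.44 to 0.086, limma adjusted p = 0.221). The second probe had 10.3, 13.3 and 14.1 in *hy5*, against 16.7, 15.1 and 15.2 in wild type, without overlap. Its log2 difference was -0.34, with a limma adjusted p of 0.0716 over all 32234 tested probes. The dimmest probe had 2.73, 3.26 and 3.41 in *hy5*, against 4.60, 4.44 and 4.55 in wild type, again without overlap, and -0.54 with an adjusted p of 0.00525. So whether *LIL3:2* passed depended on the probe, and 0 of its probes reached 2-fold. Between the genes, the log2 signal of *LIL3:1* less that of *LIL3:2* was higher by 0.38 (standard error 0.134) in *hy5* than in wild type, with no overlap and an exact permutation p of 0.10, again the smallest possible. It lay between 0.34 and 0.56 over the scaled alternatives.

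**Figure D2:**
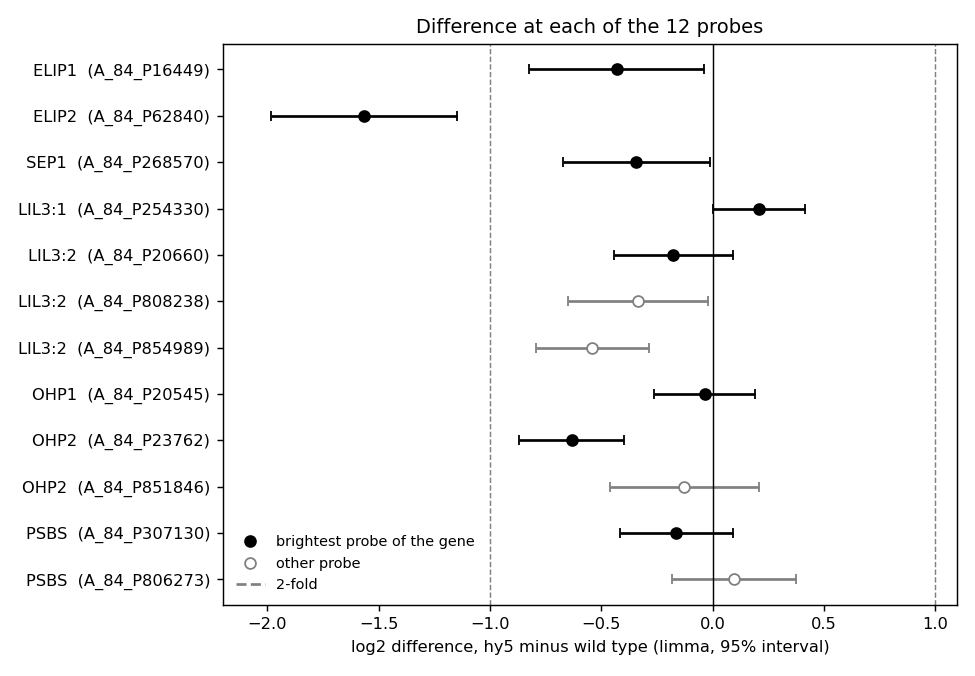
Log2 difference, *hy5* minus wild type, at each of the 12 probes (x axis), with 95% intervals from limma over all tested probes. Filled points are the brightest probe of a gene, open points its other probes, and dashed lines mark 2-fold. The *ELIP2* interval, -1.98 to -1.15, is the only one wholly beyond 2-fold, and the probes of *LIL3:2*, *OHP2* and *PSBS* differ among themselves.

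The one-helix proteins OHP1 and OHP2 act as a pair, together with HCF244, in making the D1 protein of photosystem II. *OHP2* had a signal of 11.5, 13.5 and 13.0 on the *hy5* arrays, against 20.7, 19.1 and 19.1 on the wild-type arrays, without overlap. The mean was 12.7 ± 1.08 in *hy5* and 19.6 ± 0.898 in wild type (SD, n = 3 each). The log2 difference was -0.63 (95% interval -0.86 to -0.40, limma adjusted p = 0.00155), 1.55-fold lower in *hy5*. Its other, much dimmer probe had 0.490, 0.591 and 0.515 in *hy5*, against 0.534, 0.519 and 0.703 in wild type. Those values overlapped, and the difference of -0.13 (95% interval -0.46 to 0.21) did not pass the test (adjusted p = 0.482). On unscaled intensities *OHP2* was higher in *hy5* by 0.30 (limma adjusted p = 0.0414), so its fall is one relative to the 75th percentile.

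*OHP1* did not pass the test. Its signal was 20.2, 22.1 and 18.7 on the *hy5* arrays, against 20.9, 20.2 and 21.3 on the wild-type arrays, so the mutant arrays lay on both sides of wild type. The log2 difference was -0.035 (95% interval -0.26 to 0.19, limma adjusted p = 0.776). With the wild-type mean set to 0, the log2 signal of *OHP1* less that of *OHP2* was 0.73, 0.63 and 0.44 on the *hy5* arrays, against -0.07, -0.0011 and 0.071 on those of wild type. The changes differed by 0.60 (standard error 0.0956), with an exact permutation p of 0.10, and by 0.35 where the probes of each gene were averaged. The third partner, *HCF244* (AT4G35250), was lower by a log2 difference of -0.63 (limma adjusted p = 0.00137).

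**Figure D3:**
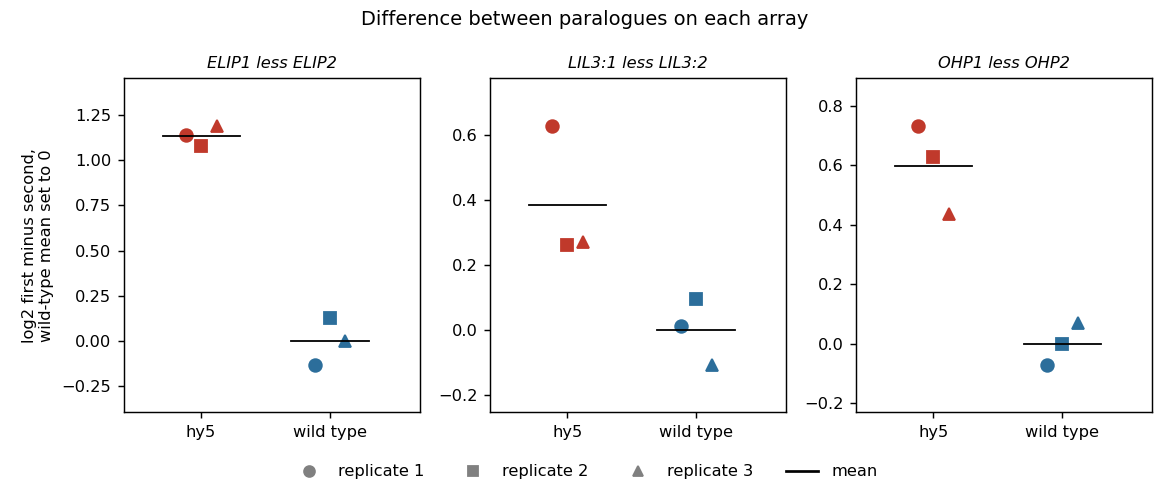
Log2 signal of the first gene less that of the second on each array (y axis), with the mean of the wild-type arrays set to 0, for *hy5* (red, left) and wild type (blue, right). Symbols are replicates and lines are means of 3 arrays. The genotypes do not overlap in any of the 3 pairs, and the gap is 1.14 for the ELIPs, 0.38 for LIL3 and 0.60 for the OHPs.

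*PSBS*, also called *NPQ4*, encodes the sensor of lumen acidity that switches on the rapid release of excess excitation as heat. Its brightest probe had 137, 156 and 138 on the *hy5* arrays, against 152, 152 and 180 on those of wild type. The genotypes overlapped through *hy5* replicate 2, and the log2 difference was -0.16 (95% interval -0.41 to 0.087, limma adjusted p = 0.234). The other probe had 1.58, 1.86 and 1.76 in *hy5*, against 1.57, 1.46 and 1.84 in wild type, a difference of 0.096 (95% interval -0.18 to 0.37, adjusted p = 0.524). The probes thus had opposite signs, and neither interval reached 2-fold.

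The genes were then set beside other lists, of partners, photoprotection, antenna and light regulator genes and of tissue markers. Counts in every list below stand beside the shares of all genes tested, 4.84% called lower and 6.55% called higher, and 26.6% lower and 26.3% higher at any fold. A list of 10 genes, called partners here, held *PSB33*, *FC2*, *HCF244*, *CHLP*, *PORA*, *PORB*, *PORC*, *CHLG*, *CAO* and also *SEP2*, the sister gene of *SEP1*. Of these, 1 was called higher and 0 lower, and 2 were higher and 5 lower at an adjusted p under 0.05 at any fold, with a median of -0.36. The gene called was *PORA*, a protochlorophyllide oxidoreductase abundant in the dark, at 0.350 in *hy5* and 0.122 in wild type, 2.84-fold higher (limma adjusted p = 0.000227). *CHLP*, the geranylgeranyl reductase that LIL3 anchors, was lower by a log2 difference of -0.48 (adjusted p = 0.00319), and *PORB* was higher by 0.55 (adjusted p = 0.00211).

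Of 12 genes for photoprotection and thylakoid acclimation, 4 were called lower and 0 higher, with 9 lower and 1 higher at any fold and a median of -0.65. The fall was largest for *KEA3*, a thylakoid potassium/proton antiporter that speeds the relaxation of quenching, with a mean of 1.12 in *hy5* and 3.47 in wild type and a log2 difference of -1.63. *SOQ1*, which restrains a slow form of quenching, had -1.22, and *LUT2*, the lycopene epsilon-cyclase of lutein synthesis, also -1.22. *PGRL1A*, of cyclic electron flow, was the fourth at -1.09. *LCNP*, the plastid lipocalin needed for the quenching that SOQ1 restrains, was the one that passed as higher, by 0.66 (limma adjusted p = 0.00135), short of 2-fold. *STN8* (0.28) and *PGR5* (0.017) were also above 0 and did not pass.

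All 21 chlorophyll a/b antenna genes had a log2 difference below 0, with a median of -0.46. Of these, 18 were lower at an adjusted p under 0.05 at any fold, and 1, *LHCB2.3*, was called, at -1.03. Antenna genes are near-identical within *LHCB1* and *LHCB2* and can share probe signal. Their median moved to -0.065 under quantile normalization. Without scaling between arrays the medians lay above 0, at 0.47 for the antenna genes, 0.46 for the green tissue markers, 0.57 for the partners, 0.28 for photoprotection and 0.26 for the light regulators described next, all under the 0.93 of all genes, so these falls too are relative to the 75th percentile.

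Among 12 light regulators, 4 were called lower and 0 higher, with 9 lower and 0 higher at any fold and a median of -0.67. The counts of lower genes and the median include *HY5*, the gene disrupted in the mutant, so its part in them is given by the genotype. The other genes called were *RUP1* (AT5G52250), a repressor of the UV-B receptor UVR8, with a log2 difference of -1.56, *HYH*, the closest homolog of *HY5*, with -1.28, and *COP1*, the ubiquitin ligase that removes HY5 in the dark, with -1.23. The receptor genes of the list differed. *CRY1* (-0.71), *PHYB* (-0.63) and *CRY2* (-0.44) were lower, short of 2-fold (limma adjusted p = 0.000595, 0.00105 and 0.00612). *UVR8* and *PHYA* had -0.18 and 0.15 and did not pass the test (limma adjusted p = 0.132 and 0.22).

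**Figure D4:**
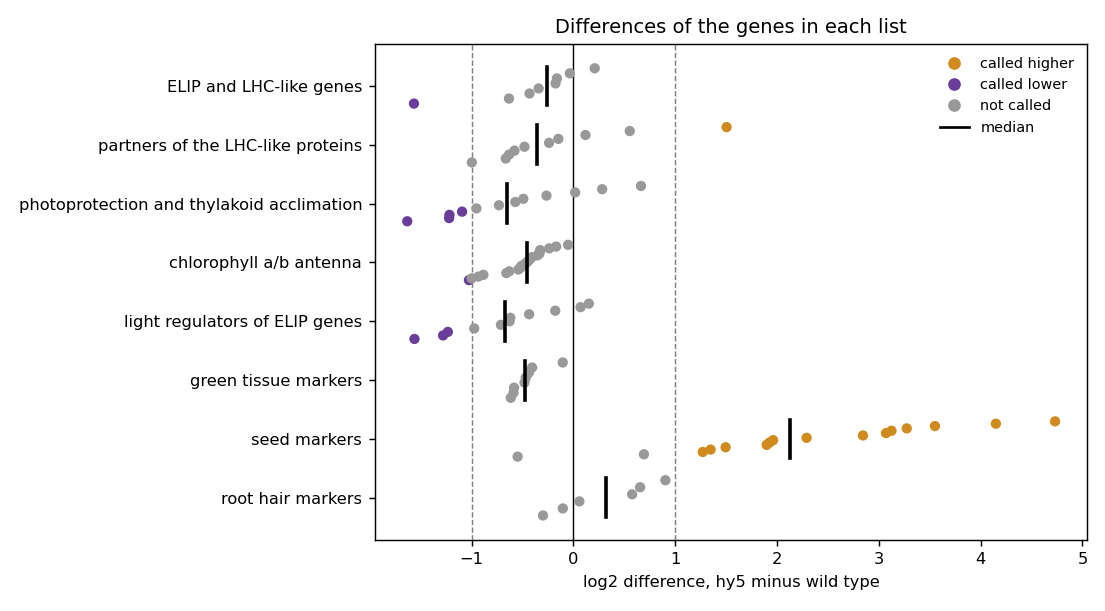
Log2 difference, *hy5* minus wild type (x axis), of each gene in 8 lists (rows), with called genes in color and the list median as a black line. *HY5*, at -5.91 among the light regulators, is left out of the points and counted in the median. Medians are -0.26 for the ELIP and light-harvesting-like genes, -0.46 for the antenna genes and 2.13 for the seed markers.

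Markers of tissue were examined as well. All 8 green tissue markers, such as *RBCS1A* and *RCA*, had a difference below 0, 7 of them at an adjusted p under 0.05, with a median of -0.47 (-0.11 under quantile normalization) and 0 called. Their summed signal was 1921 to 2115 on the *hy5* arrays and 2515 to 2928 on the wild-type arrays. Of 16 seed markers, 14 were called higher and 0 lower, with a median of 2.13 (0.91 with normexp background correction), and *DOG1* was lower at any fold (-0.55, limma adjusted p = 0.00307). The rises of *EM1* and *PER1* were 4.73 and 4.15. *OLEO2* had 3.55, but in wild type it was well above background on 2 of the 3 arrays, as were *CRU2* and *SESA4*. These genes and *SESA1* entered the test only through the *hy5* arrays, and they remain in the counts, the median and the summed signal. With the filter on all 6 arrays the median was 2.11. *SESA3*, among the 14, overlapped between genotypes (0.161 to 0.429 in *hy5*, 0.0887 to 0.179 in wild type). The summed signal of the list was 9.33 to 16.5 in *hy5* and 1.197 to 2.05 in wild type. Of 6 root hair markers, 0 were called, and the median was 0.32. *EXPA18* (0.90), *EXPA7* (0.66) and *COBL9* (0.58) were higher at any fold, while *LRX1* (0.059), *RHD6* (-0.10) and *RSL4* (-0.30) did not pass. Their summed signal, most of it from the 3 that were higher, was 9.52 to 11.5 in *hy5* and 6.38 to 8.31 in wild type. No marker was at 0, and *SESA1* was marked well above background in 0 of the 3 wild-type replicates, so that its level there is only a bound. The difference of *ELIP1* was -0.43 beside the green tissue median of -0.47, and -0.54 beside -0.11 under quantile normalization. That of *ELIP2*, -1.57, was lower than each of the 8, which reached from -0.62 to -0.10. The part of tissue makeup in these results was not tested, and in whole seedlings fewer cells of a type and less RNA per cell cannot be told apart.

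Genes with the pattern most like each ELIP were taken as those with the smallest root mean square difference over the 6 arrays, after the wild-type mean of each gene was subtracted. For *ELIP1* they were *PYL5* (AT5G05440), an abscisic acid receptor, AT2G25605 and *ZFP6* (AT1G67030), with distances of 0.0743, 0.0751 and 0.0763 on the log2 scale. *PYL5* had 5.91, 9.38 and 6.56 on the *hy5* arrays, against 10.0, 9.86 and 9.79 on the wild-type arrays, with replicate 2 the highest in the mutant. For *ELIP2* they were AT5G17780, *RUP1* and *U6acat* (AT5G40395), with distances of 0.0995, 0.102 and 0.103. *RUP1* had 1.60, 2.72 and 1.98 in *hy5*, against 6.14, 5.41 and 6.67 in wild type. These genes were picked for their likeness over the same 6 arrays. Their like falls and their brighter replicate 2 therefore follow from the choice and are no separate result.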

How the data were processed

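Seedling RNA was measured on 6 Agilent one-color arrays (3 *hy5*, 3 wild type), grouped and numbered by the sample titles. The authors deposited the scanner output of Agilent Feature Extraction 10.7.3, in which the spot value is a background-subtracted intensity on a linear scale. A normalized table from the authors holds ratio values, and dividing the intensities of its 38464 entries by their 75th percentile on each array returned it.

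Processed intensities of the scanner files were scaled to the 75th percentile of all non-control spots and put on the log2 scale. Replicate spots were averaged. Outlier flags removed 30 probes, none of them in this family. In R 4.3.3, two-sided tests by lmFit and eBayes of limma 3.58.1 were run over genes and, in a second fit, over 32234 probes. Median spot signal and its background median served for normexp, since the files used here hold no mean spot signal. Scripts were tested on simulated data. Names came from the RefSeq TAIR10.1 gene table, which matched 28595 of 29030 locus codes, and its coordinates were not used, as the array design is older. Paralogues were compared by exact permutation.

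The members and lists were chosen with earlier results of these data known. All 8 genes, *HY5*, *SEP2*, the called genes with the largest changes in each list and the 3 genes most like each ELIP were to be named. Added after their values were seen were *HCF244*, *CHLP*, *PORB*, *LCNP*, *STN8*, *PGR5*, *PGRL1A*, *COP1*, *RUP2*, *GLK1*, *GLK2*, *CRY1*, *CRY2*, *PHYB*, *UVR8*, *PHYA*, *RBCS1A*, *RCA*, *DOG1*, *SESA1*, *CRU2*, *SESA3*, *SESA4* and the root hair genes. Alternatives covered background correction, normalization, filter, probe choice, the deposited table, a replicate block, leaving out single arrays and the methods' t-test. The number of arrays limits the precision. Same-numbered arrays of the genotypes had correlations of deviations between -0.0872 and 0.0848, so the numbers do not pair them.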

Additional observations from a re-analysis of the deposited data

How the results depend on the processing

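*ELIP2* was called lower, and no other of the 8 genes was called, under all 11 scaled alternatives and with each of the 6 arrays left out. Its log2 difference lay between -1.65 and -1.40, and between -1.78 and -1.43 with an array left out. *ELIP2* was read by a single probe. The filter settings, the mean of probes and the replicate block therefore left its difference at -1.57 and could change only the p. With an array left out, the number of genes called in all lay between 2269 and 2697, against 2460 with all arrays. It was 1253 with normexp and 5047 without a filter on dim probes. Without any scaling between arrays, chosen after seeing the data, the median of all genes was 0.93, 9731 genes were called, and of the 8 genes 1 (*LIL3:1*, 1.14) was called higher and 0 lower. The differences then changed sign for *ELIP1* (0.50), *SEP1* (0.59), *LIL3:2* (0.76), *OHP1* (0.90), *OHP2* (0.30) and *PSBS* (0.77), all under the median of all genes. *PSBS* also changed sign under quantile normalization (0.051), and *OHP1*, which lay between -0.099 and 0.024 with an array left out, without *hy5* replicate 3 (0.024). At an adjusted p under 0.05 at any fold, 4 of the 8 genes were lower under quantile normalization, cyclic loess, the filter on all 6 arrays and without *hy5* replicate 2, with *ELIP1* and *SEP1* beside *ELIP2* and *OHP2*. The share of all genes lower at that limit was 26.6% in the main test. It is not given for any other setting, so these counts and those below cannot be set beside it. *OHP2* passed that limit under all 11 scaled alternatives, and its difference was -0.38 with the mean of its probes. With 3 of the 8 lower, *ELIP1* passed the adjusted limit under normexp (-0.36, adjusted p = 0.0233) and *LIL3:2* with the mean of its probes (-0.35, adjusted p = 0.0337). With a replicate block, *ELIP1* passed it as well (-0.43, adjusted p = 0.0343), and 1 of the 8 genes was called lower.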
